A study of Mus musculus with 2 samples.

Results

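The Wnt ligands, receptors and modulators are 47 mouse genes of 1 signalling pathway, taken by name from a fixed list and found in the GENCODE annotation, out of 21853 protein-coding genes. They comprise 19 Wnt ligands, 10 Frizzled receptors, 4 R-spondins with their receptor Lgr4, 7 secreted antagonists, 2 receptor-clearing ubiquitin ligases and 4 intracellular effectors or targets. Their chromatin was read by DNase-seq, which marks DNA that DNase I can cut because no nucleosome covers it, in whole ovaries of 2 female B6CASTF1/J mice of 36 days. B6CASTF1/J is the F1 hybrid of the C57BL/6J strain and a Mus musculus castaneus strain. Both libraries form 1 group with no treatment or control, so every comparison is between members, between members and all genes, or between the animals. Replicate 1 gave 109169 peaks and 301406 footprints, and replicate 2 gave 114462 peaks and 294269 footprints.

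Wnt proteins are secreted, lipid-modified ligands that bind Frizzled receptors together with the coreceptors Lrp5 and Lrp6. In the canonical branch this stops the destruction of beta-catenin, which then enters the nucleus and acts with the DNA-binding proteins Lef1 and Tcf7 and their relatives. R-spondins act through Lgr receptors to hold back Znrf3 and Rnf43, which remove Frizzleds from the cell surface, while secreted frizzled-related proteins bind Wnts and Dickkopf proteins block Lrp5 and Lrp6. In the mouse gonad, Wnt4 and Rspo1 are needed for ovarian development, and loss of Fzd4 leaves females infertile with failing corpora lutea.

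The 4 distal sites of highest value near members, with centres outside GENCODE exons, are shown first because the members' strongest distal values rest on them. The Wnt7b and Wnt11 stretches overlap an annotated exon. Sequences are from the RefSeq genome, GRCm38.p6, the build of the files (mm10), which is of C57BL/6J and holds no CAST allele. Capitals mark bases inside a footprint in both libraries, a footprint being a short stretch inside open chromatin that was protected from cutting. The Wnt7b stretch, chr15:85634501-85634800, is the central 300 bases of a site of 420 bases, chr15:85634441-85634860. The Wnt11 site lay at chr7:98815281-98815500, and the Wnt2b sites at chr3:104968081-104968260 and chr3:104992841-104993020. All are shown on the plus strand.
Wnt7b distal site: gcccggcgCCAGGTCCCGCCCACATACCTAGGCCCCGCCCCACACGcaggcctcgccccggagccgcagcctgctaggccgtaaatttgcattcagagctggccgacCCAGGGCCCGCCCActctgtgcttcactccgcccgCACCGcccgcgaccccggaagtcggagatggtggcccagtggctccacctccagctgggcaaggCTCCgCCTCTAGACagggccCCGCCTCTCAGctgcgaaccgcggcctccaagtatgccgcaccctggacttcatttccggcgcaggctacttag
Wnt11 distal site: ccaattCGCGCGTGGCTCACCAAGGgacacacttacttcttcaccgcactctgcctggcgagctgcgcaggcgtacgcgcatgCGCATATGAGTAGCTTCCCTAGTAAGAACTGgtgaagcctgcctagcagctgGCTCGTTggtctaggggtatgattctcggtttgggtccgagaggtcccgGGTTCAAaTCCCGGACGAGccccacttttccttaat
Wnt2b distal site, 6.25 kb upstream: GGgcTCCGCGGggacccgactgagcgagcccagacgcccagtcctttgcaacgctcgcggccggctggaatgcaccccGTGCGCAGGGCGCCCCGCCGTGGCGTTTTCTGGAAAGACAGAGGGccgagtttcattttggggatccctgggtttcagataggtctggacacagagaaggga
Wnt2b distal site, 31.0 kb upstream: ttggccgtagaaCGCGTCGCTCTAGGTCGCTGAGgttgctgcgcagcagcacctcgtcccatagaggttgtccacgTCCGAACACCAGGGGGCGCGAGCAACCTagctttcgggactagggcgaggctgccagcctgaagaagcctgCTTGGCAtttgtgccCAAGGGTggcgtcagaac
The capitals covered 81 of the 300 bases printed at the Wnt7b site, 75 of 220 at the Wnt11 site, and 54 and 64 of 180 at the Wnt2b sites.

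The next sequences are promoter peaks upstream of the start site, outside exons, of the ovary-determining genes Wnt4 and Rspo1 and of the pathway's feedback gene Axin2. Their positions were chr4:137277181-137277480 for Wnt4, chr4:124986241-124986400 for Rspo1 and chr11:108920241-108920348 for Axin2, all on the plus strand. The Rnf43 peak at chr11:87662461-87662660 on the plus strand is added because its library ratio stood lowest among members, a choice made after its value was seen. The capitals have the same meaning.
Wnt4 promoter: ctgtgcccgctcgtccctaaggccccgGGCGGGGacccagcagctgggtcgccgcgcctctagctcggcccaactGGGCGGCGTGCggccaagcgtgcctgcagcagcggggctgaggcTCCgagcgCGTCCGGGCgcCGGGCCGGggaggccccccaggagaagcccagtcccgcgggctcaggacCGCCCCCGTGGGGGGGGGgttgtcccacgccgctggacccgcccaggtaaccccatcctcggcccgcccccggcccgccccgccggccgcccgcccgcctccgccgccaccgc
Rspo1 promoter: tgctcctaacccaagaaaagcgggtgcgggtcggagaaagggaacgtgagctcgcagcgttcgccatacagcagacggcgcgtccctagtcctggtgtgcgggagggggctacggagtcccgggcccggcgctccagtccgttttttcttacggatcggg
Axin2 promoter: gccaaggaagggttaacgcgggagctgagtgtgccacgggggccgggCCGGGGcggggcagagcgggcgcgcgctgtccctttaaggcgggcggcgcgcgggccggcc
Rnf43 promoter: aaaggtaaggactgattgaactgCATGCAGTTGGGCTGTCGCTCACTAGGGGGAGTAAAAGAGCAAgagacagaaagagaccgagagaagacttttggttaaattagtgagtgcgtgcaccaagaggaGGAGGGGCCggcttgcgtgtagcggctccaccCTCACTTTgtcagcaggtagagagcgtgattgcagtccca
Footprints of both libraries covered 56 of the 300 bases at Wnt4 and 6 of the 108 at Axin2. The Rspo1 stretch belongs to the peak of replicate 1 alone, since the replicate 2 peak began further downstream at 124986421, and it holds no capitals. Replicate 1 had 7 footprints in its longer Rspo1 peak and replicate 2 had 1.

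Most of these genes were open at their promoters in both ovaries, at values mostly below those of other open promoters. A promoter was called open where a peak lay within 500 bp of a start site, and its value is the deposited signal of the highest such peak, in the authors' unit. Of the 47 members, 37 were open in both libraries, 7 in one alone and 3 in neither, against 65.6% of all protein-coding genes open in both and 3.53% open in one alone. The median promoter value of the open members was 2.89 in replicate 1 and 1.47 in replicate 2, against 6.71 and 3.61 over the 14332 open genes. Only 9 of the 37 had a mean value above the median of all open promoters, which was 5.17.

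Promoters rich in CpG dinucleotides are open in many tissues, so the members were also read beside genes of their own class. CpG-rich was set as an observed over expected CpG ratio of at least 0.6 within 500 bp of any start site of the gene. By this, 36 members were CpG-rich and 32 of them were open in both libraries, against 96.4% of all CpG-rich genes. Their median value was 2.22, against 6.38 for all open CpG-rich promoters. Of the 11 CpG-poor members, 5 were open in both, against 32.9% of all CpG-poor genes, with a median value of 1.28 against 1.84. CpG-rich members thus had lower values than their class.

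In each library every deposited value was a whole multiple of 1 step, within 0.05 of a step, as a scaled read count would be, though that 1 step is 1 read was not shown. On that reading, the open member of lowest mean, Dkk1, rested on 106 steps in replicate 1 and 58 in replicate 2, and that of highest mean, Ctnnb1, on 2724 and 1015. The tissue is whole ovary, so fewer cells with an open site and a less open site per cell cannot be told apart, and a missing peak does not show a promoter closed in every cell.

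The label of the tissue was checked against marker genes. Of the granulosa markers Foxl2, Fshr, Amh and Inha were open in both libraries and Cyp19a1 in neither, and of the theca and luteal markers Cyp17a1, Cyp11a1, Star and Lhcgr were open and Hsd3b1 was not. Of the stroma markers Pdgfra, Dcn and Col1a1 were open, and of the endothelium markers Cdh5 and Kdr were open and Pecam1 was not. Of the surface epithelium markers Krt8 and Krt18 were open in both libraries, Upk3b in replicate 1 alone and Lrrn4 in neither. All 5 oocyte markers lacked a promoter peak, as did the leukocyte markers Ptprc, Cd3e and Adgre1 and the markers of other organs Alb, Apoa1, Neurod2 and Myh1. The oviduct markers were all open, with Foxj1 at 11.8 and 7.13, Pax8 at 1.26 and 0.975 and Ovgp1 at 0.469 and 0.504 in replicates 1 and 2. Foxj1, like Foxl2, Pdgfra and Kdr, was CpG-rich, a class of which 96.4% was open in both libraries. Pax8 and Ovgp1 lay at the 12.2nd and 2.47th percentiles of open promoters. The part of oviduct cells in the members' values was not tested.

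The 10 Frizzled receptors, the cell-surface receptors for Wnts, had open promoters throughout. All 10 were CpG-rich and open in both libraries, as were 96.4% of all CpG-rich genes, with mean values from 1.32 to 8.72 and a median of 5.61, and 5 of them lay above the median of all open promoters. Fzd4, which also serves as the receptor for norrin in blood vessels, had the highest mean of the family, with 12.7 in replicate 1 and 4.74 in replicate 2 (8.72 ± 5.63, SD, n = 2). Next by mean was Fzd5 at 10.7 and 4.14 (7.42 ± 4.64).

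Fzd7 had 9.49 in replicate 1 and 5.00 in replicate 2 (7.24 ± 3.17). Fzd1, which is expressed in the cumulus cells around the oocyte, had 8.97 and 5.17 (7.07 ± 2.69). Fzd8 had 7.72 and 4.86 (6.29 ± 2.02). The order of these 5 receptors was not the same in both libraries, as Fzd1, Fzd7 and Fzd8 stood above Fzd4 in replicate 2.

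Fzd9 followed with 6.24 in replicate 1 and 3.63 in replicate 2, and Fzd2 with 5.02 and 2.96. Fzd3 and Fzd6, which take part in planar cell polarity, had 4.38 and 2.90 in replicate 1 and 1.73 and 1.45 in replicate 2. Fzd10 was lowest, with 1.63 and 1.01. Fzd10 lay at the 14.8th percentile of open promoters and Fzd4 at the 76.6th, so the family spanned most of the range.

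**Figure D1:**
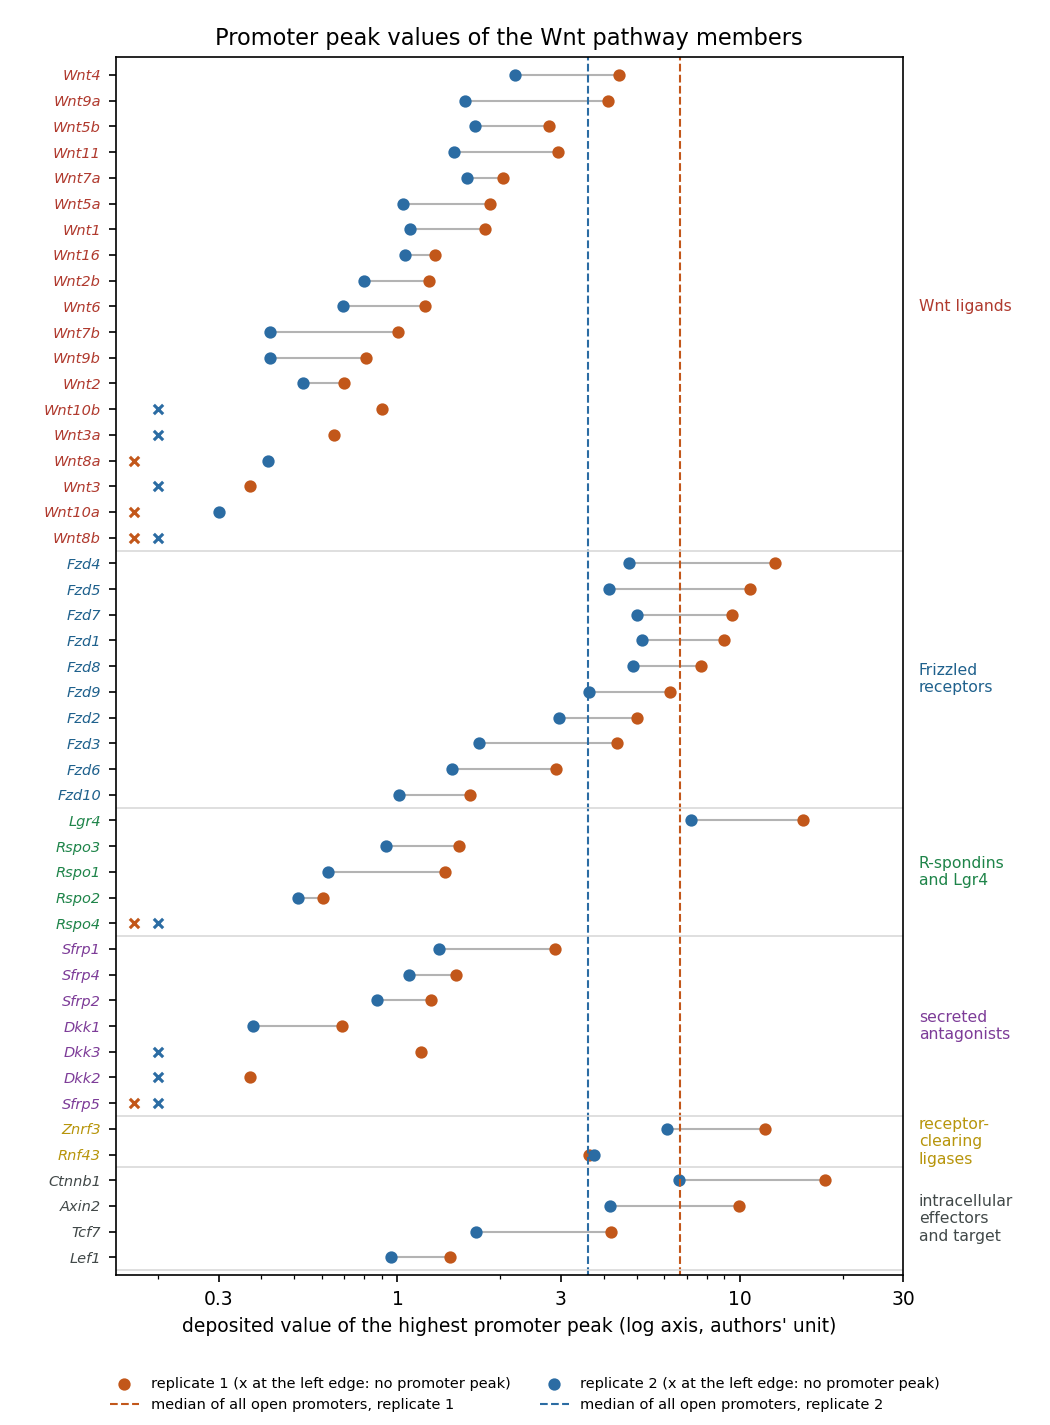
Deposited value of the highest promoter peak (log axis, authors' unit) of each of the 47 members in replicate 1 (orange) and replicate 2 (blue), grouped by role, with crosses at the left edge for a library with no promoter peak and dashed lines at the medians of all open promoters, 6.71 and 3.61. No Wnt ligand reaches the line of its own library, while Fzd4, Fzd5, Fzd7, Fzd1 and Fzd8 pass it in both.

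The Wnt ligands had low promoter values, and 7 of the 10 Frizzleds had a higher mean than any ligand. Of 19 ligands, 13 were open in both libraries, 5 in one alone and 1 in neither, and their mean values ran from 0.613 to 3.32 with a median of 1.45. None of the 13 lay above the median of all open promoters. Wnt4, the ligand needed for ovarian development, was the highest, with 4.44 in replicate 1 and 2.20 in replicate 2 (3.32 ± 1.59), at the 34.2nd percentile of open promoters.

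Wnt9a followed with 4.11 in replicate 1 and 1.57 in replicate 2. Wnt5b had 2.77 and 1.68, and Wnt11, a ligand of the branch that does not use beta-catenin, 2.95 and 1.47. Wnt7a, which patterns the female reproductive tract, had 2.04 and 1.60 (1.82 ± 0.312). That peak was centred just over 500 bp upstream of the start. A Wnt7a peak nearer to the start, 313 bp downstream, had only 0.475 in replicate 1 and 0.353 in replicate 2. Beside Wnt7a stand the open oviduct markers above, whose part in it was not tested.

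Wnt5a, the main ligand of the branch without beta-catenin, had 1.86 in replicate 1 and 1.04 in replicate 2 (1.45 ± 0.581), and Wnt1 had 1.80 and 1.09. Wnt16 had 1.29 and 1.05, Wnt6 1.20 and 0.694, and Wnt2b 1.24 and 0.798 (1.02 ± 0.310). Wnt7b had 1.00 and 0.425, and Wnt9b, which acts in the development of the kidney and reproductive ducts, 0.808 and 0.425. Wnt2 had 0.697 and 0.530 (0.613 ± 0.118), the lowest mean of the open ligands.

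The ligands open in a single library were all of low value. Wnt10b had 0.899, Wnt3a 0.651 and Wnt3 0.371 in replicate 1 and no promoter peak in replicate 2. Wnt8a had 0.419 and Wnt10a 0.301 in replicate 2 and none in replicate 1. Several of these calls lay at the edge of the 500 bp reach. By its centre the Wnt3 peak, 30 bases wide, lay at -505 bp, the Wnt10b peak at 538 bp and the Wnt8a peak at 557 bp. The Wnt3a peak lay at 101 bp. The Wnt10a call rested on 5 small peaks of 0.190 to 0.301 spread over both of its start sites. Wnt8b, a ligand of the developing forebrain, had a promoter peak in neither library.

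The 4 pairs of neighbouring Wnt genes each held 1 gene open in both libraries and 1 open in a single library, a pattern picked after the values were seen. In 3 pairs the second gene was open in replicate 1 alone. These were Wnt1 with Wnt10b on chromosome 15, with 11.7 kb between them, Wnt9a with Wnt3a on chromosome 11, with 16.2 kb between them, and Wnt9b with Wnt3 on chromosome 11, with 24.3 kb between them. In the fourth pair, Wnt6 with Wnt10a on chromosome 1, 6.19 kb apart, the second was open in replicate 2 alone. All 4 of the less open genes are among the 7 members open in one library alone.

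**Figure D2:**
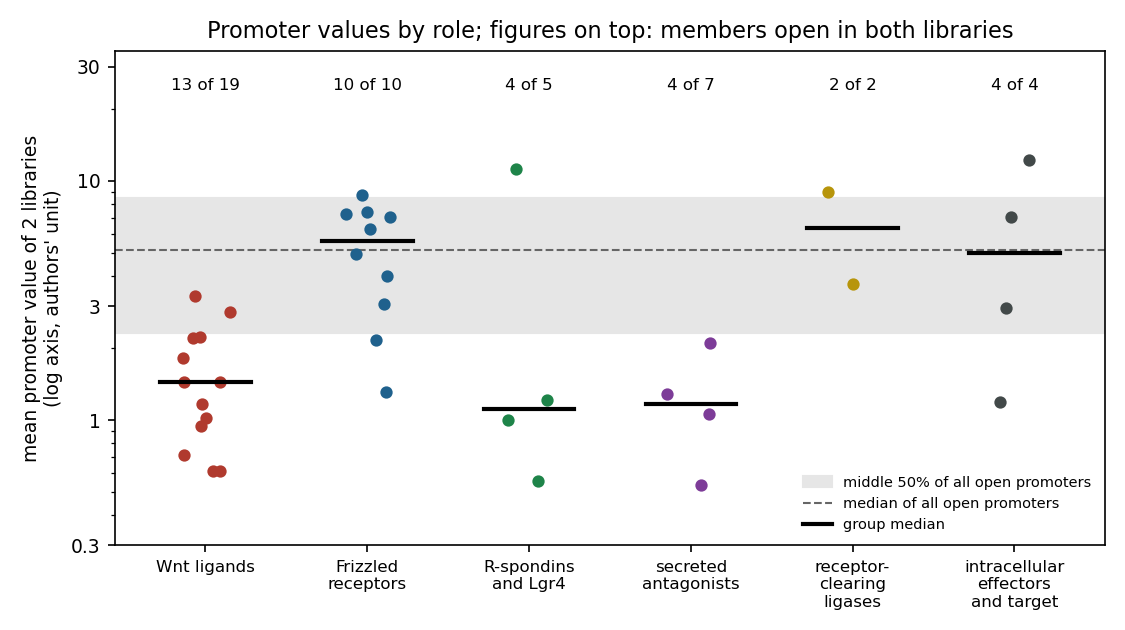
Mean promoter value of the 2 libraries (log axis, authors' unit) for each member open in both, by role, with the group median as a bar, the median of all open promoters (5.17) as a dashed line and the middle 50% of all open promoters (2.32 to 8.45) as a grey band. Frizzleds sit around the dashed line, while all 13 Wnt ligands, all 4 open antagonists and the 3 open R-spondins sit below it.

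The R-spondins were low and their receptor was high. Lgr4, the receptor through which R-spondins strengthen Wnt signals, had 15.3 in replicate 1 and 7.19 in replicate 2 (11.2 ± 5.74), at the 89.0th percentile of open promoters. Rspo3 had 1.51 and 0.923, and Rspo1, the R-spondin needed for ovarian development, had 1.38 and 0.628 (1.00 ± 0.532). Rspo2 had 0.606 and 0.510, and Rspo4 lacked a promoter peak in both libraries. The Lgr4 value in either library was above every R-spondin value of both.

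Of the secreted antagonists, 4 of 7 were open in both libraries, with a median of 1.17. Sfrp1 had 2.89 in replicate 1 and 1.32 in replicate 2. Sfrp4, a frizzled-related protein known from the corpus luteum, had 1.48 and 1.08 (1.28 ± 0.287), and Sfrp2 had 1.25 and 0.870. The order of these 3 frizzled-related proteins was the same in both libraries.

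Dkk1, which blocks the coreceptors Lrp5 and Lrp6, had 0.690 in replicate 1 and 0.380 in replicate 2 (0.535 ± 0.220), the lowest mean of all open members. Dkk3, a distant Dickkopf relative, had 1.17 in replicate 1 and no promoter peak in replicate 2, and Dkk2 had 0.371 in replicate 1 and none in replicate 2. Sfrp5 had none in either library. Among the members open in one library alone, Dkk3 had the highest value. The Dkk2 peak was centred 499 bp from the start. The highest Dkk3 peak was centred at 657 bp, and a Dkk3 peak at -73 bp had 1.17 as well.

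Of the 2 ligases and 4 intracellular members, all open in both libraries, Znrf3, Axin2 and Ctnnb1 lay above the median of all open promoters. Znrf3, the ubiquitin ligase that removes Frizzled receptors and whose loss disturbs testis development, had 11.9 in replicate 1 and 6.12 in replicate 2 (8.99 ± 4.06). Its relative Rnf43 had 3.63 and 3.76 (3.70 ± 0.0909), the single member whose value was higher in replicate 2. These values are of a peak centred at -527 bp from the nearest start. Rnf43 peaks nearer to a start were lower. They had 0.606 in replicate 1, at 141 bp, and 0.622 and 0.458 in replicate 2, at 159 and -47 bp. Ctnnb1, which encodes beta-catenin, had the highest mean of all members with 17.7 and 6.64 (12.2 ± 7.85), at the 92.5th percentile of open promoters, though Lgr4 was higher in replicate 2.

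Axin2, a scaffold of the beta-catenin destruction complex and a common target gene of the pathway, had 9.96 in replicate 1 and 4.18 in replicate 2 (7.07 ± 4.09). Tcf7 had 4.19 and 1.69, and Lef1, like Tcf7 a DNA-binding partner of beta-catenin, had 1.42 and 0.955 (1.19 ± 0.328). Lef1 was at the 13.0th percentile of open promoters. Its highest peak lay at a different place in each library, as did those of Wnt6 and Wnt7b, so the values of these 3 genes compare different peaks.

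Promoters without a peak were searched for single bases with a listed false discovery rate. Of the 5 members without a promoter peak in replicate 1 and the 8 in replicate 2, none had a base with a listed false discovery rate within its promoter. Over all genes 158 of 7030 in replicate 1 and 197 of 7241 in replicate 2 did, so that none among so few members is near the share of all genes. Footprints lay inside a promoter peak in both libraries at 35 of the 37 open members, against 97.1% of all open genes, and the exceptions were Wnt6 and Dkk1, which had none in replicate 2.

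Other genes of the pathway were read in the same way, from a hand-picked list and with no test against the members. These were 60 genes, among them coreceptors, secretion factors, secreted antagonists, destruction complex, transcriptional partners and polarity genes. Of them, 54 were open in both libraries and 6 in neither. The share open in both was 65.6% over all protein-coding genes and 96.4% over CpG-rich ones. The highest by mean were Btrc, which tags beta-catenin for destruction, at 26.6 in replicate 1 and 12.7 in replicate 2, and the corepressors Tle4 at 25.8 and 12.1 and Tle1 at 24.6 and 8.99. Gsk3b, the kinase of the destruction complex, had 15.9 and 8.97, and Tnks2, a tankyrase that destabilises axins, had 17.1 and 7.19. The genes without a peak were the secreted proteins Dkk4, Dkkl1, Sost, Sostdc1 and Ndp and the Dickkopf receptor Kremen2.

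Values were higher in replicate 1 at 36 of the 37 open members, as at 13860 of the 14332 open promoters, so ratios are given as log2 of replicate 1 over replicate 2 less the median of all open promoters, which was 0.89. The members' median was then -0.05, with an SD of 0.36 across members, against an SD of 0.39 across all open promoters. The highest were Fzd4 at 0.53 (12.7 and 4.74), Ctnnb1 at 0.53 (17.7 and 6.64), Wnt9a at 0.50 (4.11 and 1.57) and Fzd5 at 0.48 (10.7 and 4.14). The lowest were Rnf43 at -0.94, Rspo2 at -0.64, Wnt16 at -0.60 and Wnt7a at -0.54.

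The ratio moved with the value, as its median went from -0.47 in the lowest 10% class of open promoters to 0.20 in the highest. Set beside promoters of their own class, 3 of 37 members lay outside the central 95%, which were Rnf43 below and Wnt9a and Wnt7b above. The 95% counting interval of Rnf43, exact binomial and for counting error only, ran from -1.11 to -0.77 and crossed the lower edge of its class, -0.85. Those of Wnt9a, 0.28 to 0.72, and Wnt7b, -0.08 to 0.79, also reached inside their classes, and the Wnt7b ratio compares different peaks. The strongest Rnf43 peak, whose sequence is printed above, had its centre at -527 bp from the nearest start. No Rnf43 start had a CpG-rich window, the highest observed over expected ratio being 0.527. With 1 library per animal, no test between the animals was possible.

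**Figure D3:**
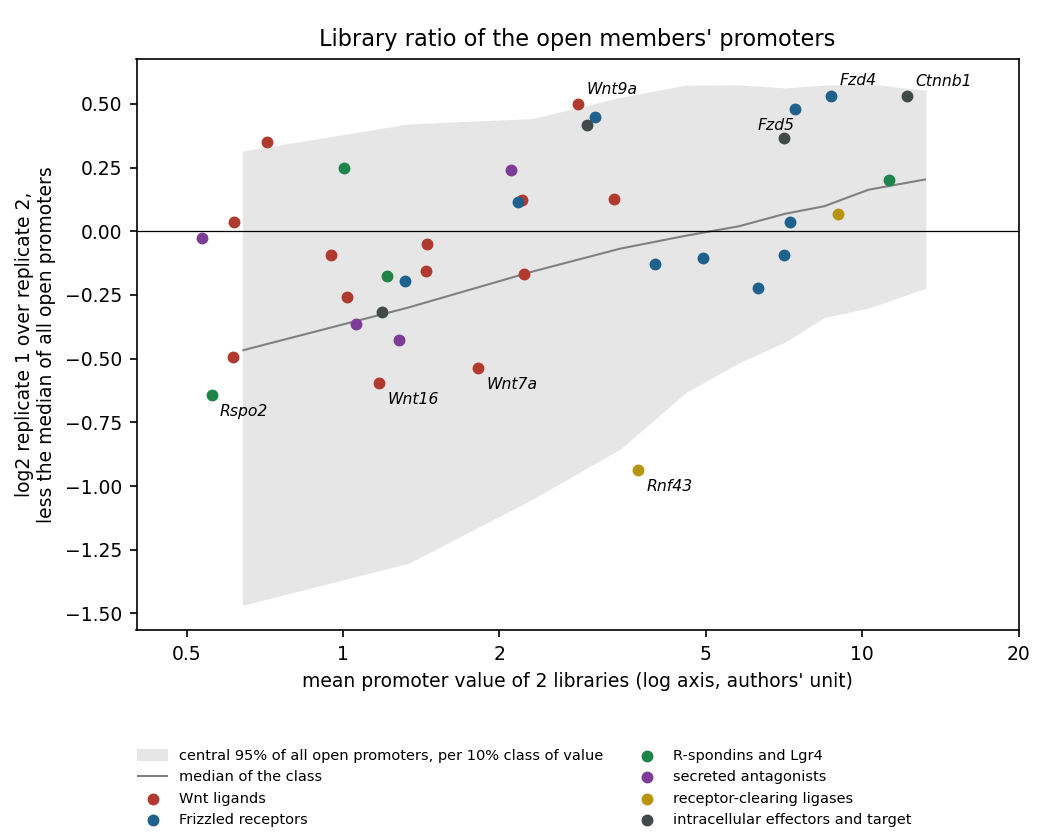
Log2 ratio of replicate 1 over replicate 2 at the 37 open members' promoters, less the median of all open promoters, against the mean value (log axis), with the central 95% of all open promoters per 10% class of value in grey. Rnf43 lies below the band at -0.94, and Wnt9a at 0.50 and Wnt7b at 0.35 lie just above it.

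Distal open sites were frequent around the members. A distal peak had its centre over 1 kb from every annotated start site and a member's start as the nearest among protein-coding genes. There were 362 such peaks in replicate 1 and 370 in replicate 2, each judged by its position in its own library. Pairs of peaks between the libraries, judged by the joint position of the pair, gave 258 shared distal peaks. At least 1 shared distal peak was found at 44 of 47 members, against 58.9% of all protein-coding genes. The median was 4 per member against 1 per gene.

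Members also had wider territories, the stretch of chromosome nearest to the gene's own start, with a median of 101 kb against 46.4 kb over all genes. Per length of territory they had 3.35 shared distal peaks per 100 kb, against 1.89 over all genes. The distal peaks themselves were like others, with a median value of 0.793 against 0.796 and a median distance of 24.7 kb against 26.9 kb. Of the 258, 140 were intergenic, 86 lay in introns, 48 of these in the member's own gene, and 32 lay in exons. Footprints of both libraries overlapped in 67.8% of them, against 68.1% of all shared distal peaks.

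Ctnnb1 had the most shared distal peaks, 16, up to 152 kb upstream and 124 kb downstream, and their mean values were low, from 0.405 to 1.75. Wnt5a had 15, up to 221 kb upstream and 189 kb downstream, with values from 0.317 to 2.79. Wnt7b also had 15, of which 13 lay upstream within 52.2 kb, and its values ran from 0.682 to 16.3. Fzd8 had 14, reaching 626 kb upstream, and Fzd1 had 13.

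Promoter values differed widely among these leading genes, with means of 12.2 at Ctnnb1, 7.07 at Fzd1 and 6.29 at Fzd8, against 1.45 at Wnt5a and 0.714 at Wnt7b. Because they were picked for their high counts, no relation between promoter value and number of distal peaks can be read from them. Wnt10a had 9 shared distal peaks in a territory of 42.4 kb, the densest of all members at 21.2 per 100 kb, although its promoter was called in replicate 2 alone. Of its peaks, 2 lay in an exon of the neighbouring Wnt6. Wnt8b, with no promoter peak, had 7 shared distal peaks, Sfrp5 had 3 and Rspo4 had 2. Wnt1, Wnt10b and Fzd6 had none.

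By role, the medians were 4 for Wnt ligands, 5 for Frizzleds, 2 for R-spondins with Lgr4, 4 for antagonists, 4.5 for the ligases and 10 for the intracellular members. Axin2 had 11, of which the strongest lay in its own intron at chr11:108925321-108925500, 2.23 kb downstream of a start site, with 5.09 in replicate 1 and 3.21 in replicate 2. Lef1 had 9, all upstream, up to 170 kb away. Wnt4 had 8, with values up to 2.12, and Rspo1 had 2, at 0.597 or less.

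**Figure D4:**
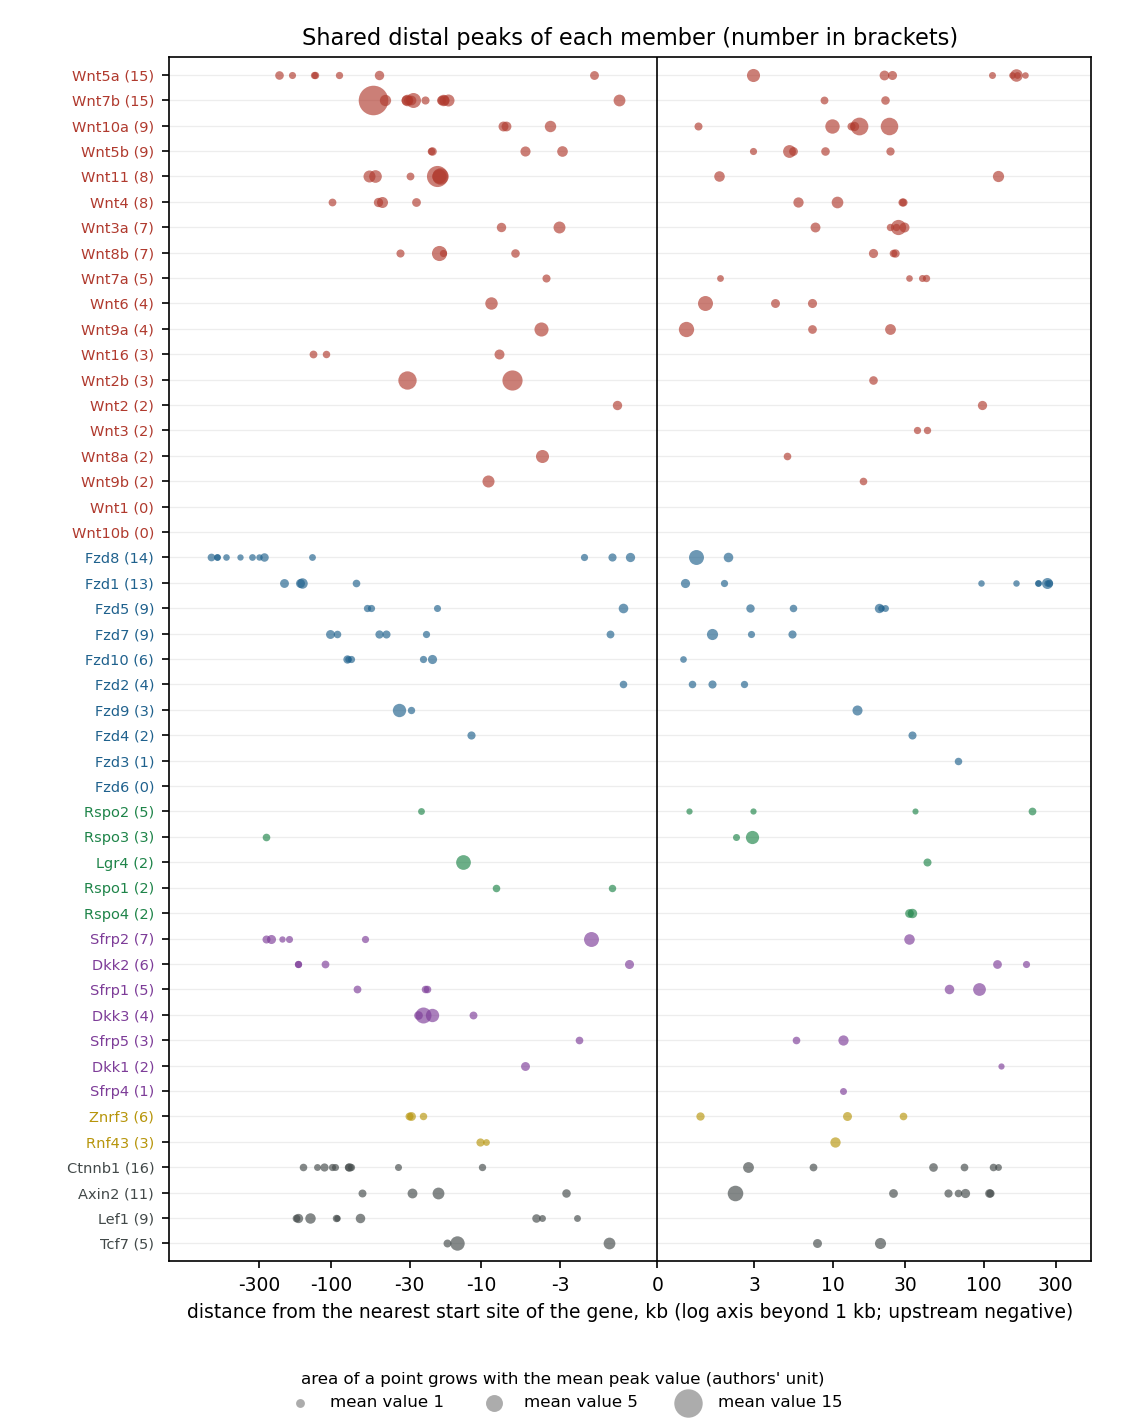
Each point is a shared distal peak of a member at its distance from the nearest start site of that gene (kb, log axis beyond 1 kb, upstream negative), with area growing with its mean value and the number of peaks in brackets. Most points are small, and the large ones lie upstream of Wnt7b, Wnt11 and Wnt2b and downstream of Wnt10a.

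The distal sites of highest value near members lay mostly at ligand genes, and several held or neighboured RefSeq starts of noncoding RNAs. None of the 13 ligands open in both libraries lay above the median of open promoters, so low promoters are not particular to these genes. The Wnt7b site, 52.2 kb upstream, had 22.2 in replicate 1 and 10.3 in replicate 2 (16.3 ± 8.42), which is far above the 1.00 and 0.425 of the Wnt7b promoter. It lay 54 bp by its centre from the RefSeq start of D130051D11Rik, a long noncoding RNA. GENCODE holds no start within 1 kb of it.

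The Wnt11 site shown above, 19.7 kb upstream, had 9.87 in replicate 1 and 6.26 in replicate 2 (8.06 ± 2.56), and it held a RefSeq proline tRNA gene from 98815415 to 98815486 on chromosome 7. The last footprints of the printed sequence, from GGTTCAA onward, fall inside that tRNA gene, in the end that carries the internal promoter element known as the B box. Next to it lay a Wnt11 peak at chr7:98815661-98816120 with a second proline tRNA gene, at 3.54 and 3.18, and one at chr7:98816181-98816480 with 5.32 and 4.09, 199 bp from a RefSeq noncoding start. The Wnt11 promoter had 2.95 and 1.47.

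The Wnt2b sites had no RefSeq start within 1 kb. The one 6.25 kb upstream had 8.76 in replicate 1 and 5.84 in replicate 2 (7.30 ± 2.07), and the one 31.0 kb upstream had 7.47 and 4.42 (5.95 ± 2.15). Both stood well above the Wnt2b promoter at 1.24 and 0.798.

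Wnt10a had a site 14.9 kb downstream at chr1:74808201-74808400, with 6.81 in replicate 1 and 4.31 in replicate 2, and one 23.6 kb downstream at chr1:74816841-74817140, with 7.09 and 3.74. The second of these lay 173 bp from a RefSeq glycine tRNA gene. The Dkk3 site, 24.4 kb upstream at chr7:112183321-112183520, had 5.07 and 3.76, against a promoter open in replicate 1 alone at 1.17. Over all, 20 of the 258 shared distal peaks (7.75%) had a RefSeq start within 1 kb, against 5.35% of all shared distal peaks. Among the 20 of highest value near members 6 did, including an Fzd8 site, where the start was of an Fzd8 mRNA. The share among distal peaks of high value over all genes was not counted. The assignment of a site to a member is by distance alone.

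Distal peaks without a partner in the other library had lower medians than those with one, near members as over all genes. There were 107 near members in replicate 1, with a median of 0.443, and 112 in replicate 2, with a median of 0.402. Peaks near members with a partner had medians of 0.873 in replicate 1 and 0.743 in replicate 2. Over all genes the medians were 0.397 and 0.373 without a partner and 0.853 and 0.733 with one. The highest near a member without a partner was 2.77, at Fzd8 in replicate 2. Wnt7a stood out with 21 distal peaks in replicate 1 and 5 in replicate 2. Of the 21, 16 had no partner, with a median value of 0.117 and none above 0.391.

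TCF/LEF words, to which Lef1 and Tcf7 and their relatives bind, had shares near members close to those over all sites. The words searched were CTTTGAT and CTTTGAA on both strands. They were found within 75 bp of the centre of 9 of 258 member distal peaks (3.49%), against 4.22% of all shared distal peaks. Within 500 bp of 1 start site per gene they were found in 7 of 37 open member promoters (18.9%), against 18.5% of all open promoters. Other start sites of a gene were not searched, which leaves out Axin2 matches 883 to 889 and 903 to 909 bases downstream of its first start. No distal match lay inside a footprint in both libraries. The 9 peaks were near Wnt5a, Wnt6, Wnt11, Wnt16, Dkk2, Dkk3, Znrf3, Lef1 and Tcf7, 1 each.

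Within the promoter windows searched, Axin2 held the single match of a member inside a footprint in both libraries. Over all open promoters, 58 of 2647 with a match had one inside a footprint in both, which is 2.19%. The Axin2 match lay 78 to 84 bases downstream of the first start site, at chr11:108920427-108920433, inside footprints of 19 bases in replicate 1 and 11 bases in replicate 2. A further Axin2 match, a Tcf7 promoter match and a match in a Tcf7 distal peak touched footprints in both libraries without lying inside them. In replicate 2 the further Axin2 match lay outside peaks, just past a peak that ended at 108920780. These 4 sites are printed because they are the matches that footprints reached in both libraries, chosen after this was seen, and here capitals mark the match on the plus strand.
Axin2, chr11:108920416-108920444: agccggctgcgCTTTGATaaggtcctggc
Axin2, chr11:108920779-108920807: tcggctcgcgcCTTTGAAgtgcacagtta
Tcf7, chr11:52283357-52283385: cgggtcggaacATCAAAGgcaccgcgggc
Tcf7 distal, chr11:52284448-52284476: cctggcggaggATCAAAGagaccaggcct
All 4 lay in exons of an annotated transcript. The Tcf7 distal peak that holds the last had 3.002 in replicate 1 and 1.32 in replicate 2. The promoter matches at Wnt5b, Fzd1, Fzd7, Fzd10 and Dkk1 lay in no footprint of either library. Most of them also lay outside peaks, as only a Wnt5b match lay in a peak of both libraries and a Dkk1 match in a peak of replicate 1. Footprints lay mainly inside peaks, 80.9% in replicate 1 and 84.3% in replicate 2. The matches outside peaks therefore do not show unprotected words in open chromatin. The Wnt5b match in a peak of both libraries did lie in open chromatin with no footprint called over it. A match is a description of the letters and does not show which protein bound.

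**Figure D5:**
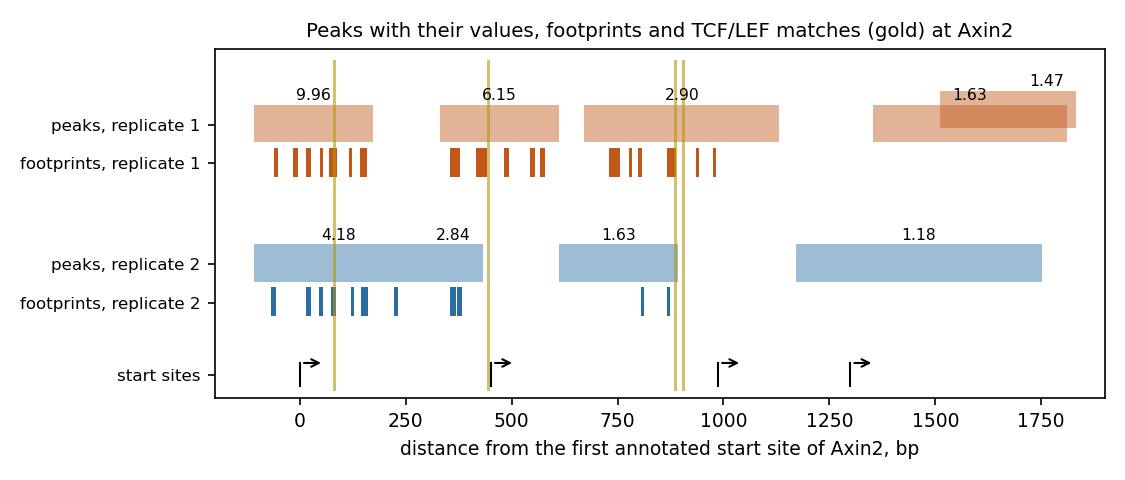
Start region of Axin2 by distance from its first annotated start site (bp), with peaks and their values (authors' unit) above the footprints inside them, replicate 1 over replicate 2, start sites as arrows and TCF/LEF matches as gold lines. The match 78 to 84 bases downstream crosses a peak and a footprint in both libraries, at peak values of 9.96 and 4.18.

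Other short words were counted in the same windows. In the members' distal peaks, the TEAD word GGAATG was found in 11.2% against 9.66%, the RUNX word TGTGGT in 15.1% against 10.99%, the SP/KLF word GGGCGG in 11.6% against 9.02% and the word for the insulator protein CTCF in 6.98% against 7.30%. The NR5A words CAAGGTCA and CAAGGCCA, bound by the steroid gene regulators Nr5a1 and Nr5a2, were in 4.65% against 6.90%. The forkhead words TGTTTAC and TGTTTGC were in 6.20% against 5.42%, the GATA word AGATAA in 7.75% against 6.38% and the AP-1 word TGANTCA in 6.98% against 6.23%. In open promoters, TEAD words were in 6 of 37 members (16.2%) against 34.0% of all, NR5A words in 5.41% against 11.2%, and SP/KLF words in 35 of 37 against 86.3%. No member promoter held the CTCF word, against 2.24% of all. All words were searched on both strands, and these shares are descriptions with no test.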

How the data were processed

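DNase-seq libraries of ovary from 2 females were analysed, each taken as 1 animal, since the labels give them different female numbers, though the same donor entry, which is read as the strain. P-values between animals were not computed. Coordinates are on mm10, per the labels. The authors deposited peaks with a signal per peak, called separately for each library, whose scaling no source used here gives. Q-values per base, deposited by the authors, are held where below 0.05, and deposited footprints carry a score of 0.01 in every line, of which only positions were used. The sources used here name no aligner or caller, and the number of reads behind a peak is not stated. The longer of the authors' 2 peak lists was used, with overlapping peaks within a list (1.59% in replicate 1 and 2.24% in replicate 2) kept as deposited.

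Peaks were paired one to one by the longest overlap, of at least 1 base, in both directions. Genes and start sites came from GENCODE vM21 protein-coding transcripts, and RefSeq GRCm38.p6 gave sequences and further starts. Overlaps were computed in Python 3.11.15 with numpy 2.4.6, sequences were read with pysam 0.24.0, intervals came from scipy 1.17.1, and the overlap count was tested on simulated data. Intervals cover counting error only. The reads come from F1 hybrids and are shown on the C57BL/6J reference, and no source used here gives how CAST alleles were handled.

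The members and lists were chosen with earlier results of these data known. Values were given in full for the 12 members of highest promoter value, 15 members set by name, those open in one library alone, 4 at each end of the library ratio, 5 with the most distal peaks and the 8 strongest distal peaks. Other start-site, peak-list, distance and value limits, and each library alone, were tried. The Lef1 promoter sequence was left out because it lies in an exon, and 1 further promoter sequence is not reported here.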

Additional observations from a re-analysis of the deposited data

How the results depend on the processing

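Of 56 alternative values, 47 kept the result and 9 moved it. The count of members open in both libraries ran from 31, with peaks above the median value, to 42, with replicate 1 alone. With peaks above the median value the members open in one library alone numbered 4, the shared distal peaks 127 and their median per member 2. With distal peaks held between 2 kb and 100 kb from starts, there were 161, with a median of 2 per member, and 1.86% had a TCF/LEF match. The shorter peak list gave 145 shared distal peaks. Leaving out a library gave a median of 5 to 7 distal peaks per member. Matches counted anywhere in the peak came to 5.43%. The median library ratio, reported as -0.05, was 0.12 when set against promoters of the same value class and ran from -0.115 to -0.08 under the other settings. Leaving out RefSeq starts as well, an alternative chosen after seeing the data, left 238 shared distal peaks. The causes of these changes were not tested beyond the fewer peaks or sites that each limit leaves. No paired analysis was possible because there is 1 group. With 1 library per animal, no difference between the animals has a replicate check.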

Other observations

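Around the other pathway genes, distal sites were most numerous at Tle3, a corepressor that binds TCF proteins, with 33 shared distal peaks, and at Tcf7l2, a relative of Tcf7, with 30, both chosen after their values were seen. Both had more than any of the 47 members, of which Ctnnb1 had the most at 16. Their promoters had 15.9 in replicate 1 and 7.49 in replicate 2 at Tle3, and 8.77 and 3.76 at Tcf7l2. The coreceptors Lrp5 and Lrp6 had 4.34 and 6.47 in replicate 1 and 1.89 and 3.15 in replicate 2, between the levels of most ligands and of the leading Frizzleds. Wls and Porcn, which all Wnts need for their secretion, had 2.88 and 5.28 in replicate 1 and 1.74 and 2.46 in replicate 2.

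Of the R-spondin receptors outside the members, Lgr5 had 2.20 in replicate 1 and 1.28 in replicate 2, and Lgr6 had 1.99 and 0.569, against 15.3 and 7.19 at Lgr4. Around Fzd8, replicate 2 had 25 distal peaks, 10 of them with no partner, against 15 in replicate 1 with 2.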
